A study of Mus musculus with 12 samples.

Results

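The potassium channel genes were taken as every gene of the deposited gene models whose symbol begins with Kcn, the prefix shared by the pore-forming and auxiliary subunits of these channels. There were 92 such genes among 22513 genes with at least 1 coding transcript, so that the choice rests on nomenclature and on no measured value. Each of the 92 carried a protein identifier on at least 1 transcript. They comprised 39 voltage-gated subunits, 15 inward rectifiers, 14 K2P leak channels, 4 small- and intermediate-conductance calcium-activated channels, 4 members of the Slo group and 16 auxiliary subunits or regulators. Of these genes, 76 encode a pore-forming subunit.

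The study behind the models sequenced polyA RNA of the nucleus accumbens (NAc), the ventral striatum, in mice labelled C57BL/6 and 8 to 10 weeks old, which the study's methods give as C57BL/6J males. In the repeated cocaine group, 3 pools came from mice injected intraperitoneally with 20 mg/kg cocaine on 7 days, against 3 pools given saline on 7 days. In the acute cocaine group, 3 pools came from mice given saline on 6 days and then 20 mg/kg cocaine on 1 day, against 3 further pools given saline on 7 days. The tissue label is missing from the acute series, whose source label names NAc. Tissue was taken 24 h after the last injection in the study's regimen, and the labels give 3 to 5 animals to a pool, so that no value of 1 mouse exists. The deposited file holds the gene models to which reads were assigned, with no count, FPKM or other value for any pool. No level of a channel gene, no sequencing depth and no difference of cocaine from saline pools could therefore be computed, and whether NAc cells use a given transcript cannot be read from these data. What can be read is which transcripts, start sites, proteins and exons the study could register for each channel. As the values are properties of 1 fixed set of models, they have no replicates and no test was made.

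Potassium channels let potassium ions flow down their electrochemical gradient, which holds the resting potential and repolarizes the membrane after a spike. In the medium spiny neurons that make up most of the striatum, inward rectifiers hold the cell at a very negative potential, A-type and Shaker-type channels delay the first spike, and KCNQ channels damp sustained firing. Much of the variety of these channels comes from mixing subunits, from auxiliary proteins and from alternative splicing, the last being a main subject of the study.

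The 92 genes carried 260 transcripts, with a median of 2 per gene. At least 2 transcripts were listed for 53 of 92 genes (57.6%), against 57% of all coding genes. Groups of transcripts that share a transcription start site (TSS groups) numbered 2 or more in 46 genes (50%), against 43.7% of all coding genes. Protein identifiers group transcripts by their coding sequence, and 40 genes had more than 1 (43.5%), against 45% of all coding genes. These 40 include Kcnj12, an inward rectifier whose 2 identifiers stand for the same coding region of 1281 bases. By these shares the channel genes lay near all coding genes. In coding genes of 2 or more exons, a limit not set on the channel genes, the shares were 65.3%, 50.2% and 51.7% in the same order. The plot of transcripts and TSS groups by family shows a wide spread among the families. Kv beta, Slo and KChIP genes, 11 in all, held 78 of the 260 transcripts, whereas the 8 Shaker genes held 10 and the 14 K2P genes held 20.

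**Figure D1:**
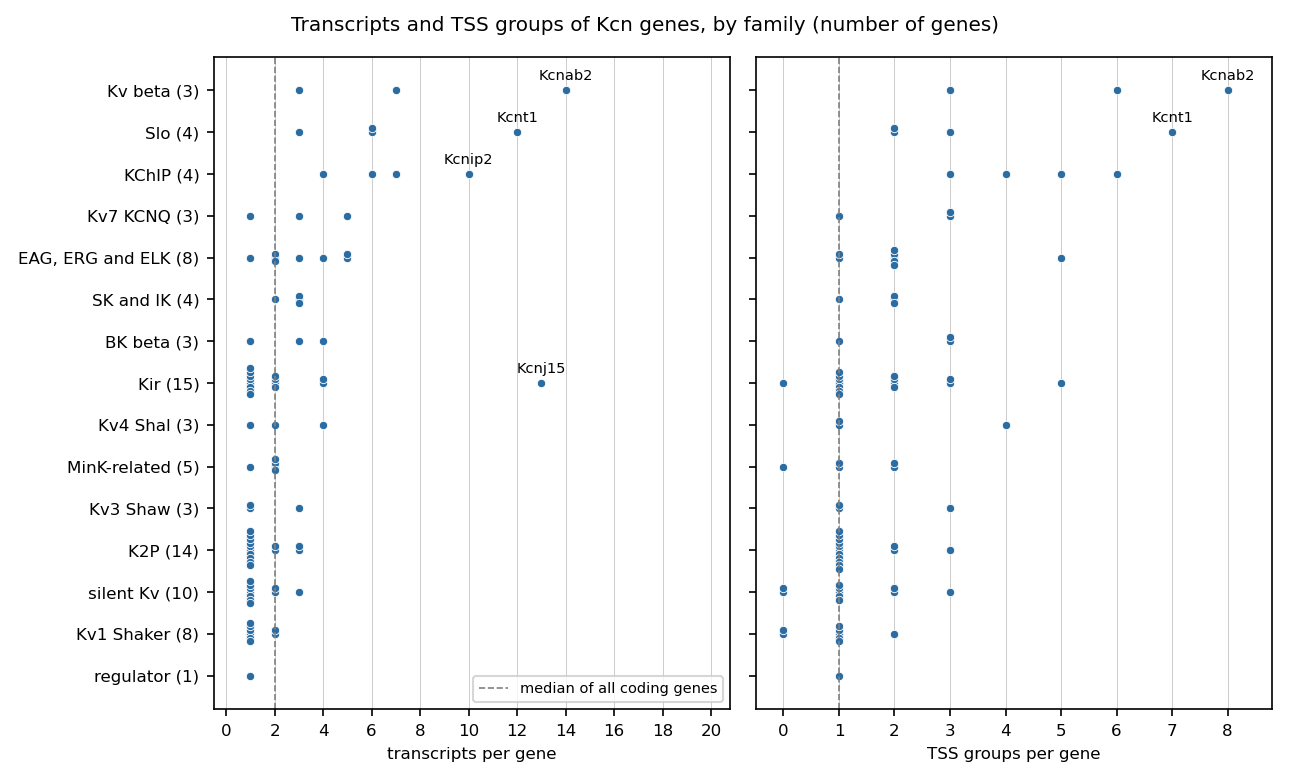
Transcripts per gene (left) and TSS groups per gene (right) of 88 Kcn genes, 1 point per gene, with families ordered by their mean number of transcripts and the dashed line at the median of all coding genes. Among the genes plotted, Kcnab2 has the most transcripts, 14, and the most TSS groups, 8; the 6 genes at 0 TSS groups have 1 exon and receive no such identifier.

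Kcnab2, a beta subunit that binds Shaker-type channels, had 14 transcripts in 8 TSS groups and 7 protein identifiers. Kcnj15, an inward rectifier, had 13 transcripts but only 6 protein identifiers over 12 coding transcripts. Kcnt1, a sodium-activated channel, had 12 transcripts in 7 TSS groups, and 6 of the 12 transcripts were coding. Kcnip2, a calcium-binding KChIP protein that associates with Kv4 channels, had 10 transcripts in 6 TSS groups. Kcnab1 and Kcnip1 had 7 transcripts each, and Kcnip4, Kcnma1 and Kcnt2 had 6 each. Kcnh2, an ERG channel known from cardiac repolarization, had 5 transcripts, each in a TSS group of its own. Kcnd3, a Kv4 channel gene, and the BK beta gene Kcnmb4 had 4 transcripts each, and the leak channel Kcnk13, the IK gene Kcnn4 and the silent subunit Kcng1 had 3 each. At the other end, 39 genes had a single transcript. Of the 260 transcripts, 40 carried no protein identifier, and 30 of these 40 were annotated as processed transcripts without a coding region.

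A list of 28 channels known in medium spiny neurons or their glia held 113 transcripts with a median of 2.5. In 9 of these 28 the models list a single transcript, so that the models hold no pair of isoforms to compare. They were Kcnj2 and Kcnj4, inward rectifiers of the resting potential, Kcnj9, a G protein-gated rectifier subunit, the Shaker genes Kcna1, Kcna2 and Kcna4, the A-type gene Kcnd2, the M-current gene Kcnq3 and the leak channel Kcnk3. Kcnj3 and Kcnj6, the G protein-gated partners of Kcnj9, had 2 transcripts and 4 transcripts, and Kcnd3, the relative of Kcnd2, had 4.

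An exon was called a cassette exon when another transcript of the same gene joined the neighbouring splice sites directly and so skipped it. There were 42 cassette exons in 20 genes (21.7%), against 26.7% of all coding genes. When both the including and the skipping transcript had to be coding, 36 remained in 18 genes (19.6%), against 22.3%. The 4 Slo genes, with longest coding regions of 3363 to 3714 bases, held 15 of the 42, whereas the 14 K2P genes and the 10 silent Kv genes held none. Of the 36, 28 lay wholly inside a coding region, and 24 of these 28 (85.7%) had a length that is a multiple of 3 and so kept the reading frame, against 3968 of 5760 (68.9%) in all coding genes. Their median length was 60 bases, against 97 bases. Exons of 51 bases or fewer made up 10 of the 28 (35.7%), against 19.4% of the 5760.

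Of these 10 short coding cassette exons, 9 are shown, as short coding stretches included in some transcripts of a gene and skipped in others. Each was read from the NCBIM37 (mm9) genome, 5′ to 3′ on the gene's strand, with the exon in capitals and 12 intron bases on each side in lower case.
Kcnma1, exon of 9 bases, chr14:24251455-24251463, minus strand: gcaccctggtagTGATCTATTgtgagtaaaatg
Kcnma1, exon of 12 bases, chr14:24268422-24268433, minus strand: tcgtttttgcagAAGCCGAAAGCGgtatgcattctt
Kcnma1, exon of 29 bases, chr14:24125947-24125975, minus strand: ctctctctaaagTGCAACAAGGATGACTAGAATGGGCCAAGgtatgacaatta
Kcnh7, exon of 21 bases, chr2:62683811-62683831, minus strand: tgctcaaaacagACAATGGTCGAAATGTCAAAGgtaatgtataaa
Kcnt2, exon of 21 bases, chr1:142475032-142475052, plus strand: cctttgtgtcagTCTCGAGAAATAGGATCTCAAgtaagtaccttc
Kcnip1, exon of 33 bases, chr11:33551540-33551572, minus strand: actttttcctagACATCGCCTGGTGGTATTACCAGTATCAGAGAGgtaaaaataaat
Kcnt1, exon of 42 bases, chr2:25737716-25737757, plus strand: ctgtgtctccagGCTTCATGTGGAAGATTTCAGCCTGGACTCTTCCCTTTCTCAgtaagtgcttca
Kcnab2, exon of 42 bases, chr4:151808891-151808932, minus strand: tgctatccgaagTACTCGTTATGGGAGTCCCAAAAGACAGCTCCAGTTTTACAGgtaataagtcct
Kcnab2, exon of 45 bases, chr4:151774330-151774374, minus strand: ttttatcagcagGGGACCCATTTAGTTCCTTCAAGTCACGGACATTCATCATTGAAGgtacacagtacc
In all 9, the intron before the exon ended in AG and the intron after it began with GT. The Kcnma1 exon of 29 bases was the only 1 of the 9 whose length is not a multiple of 3, and it is exon 26 of 27 in the transcript shown.

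Kcnma1 encodes the pore of the large-conductance BK channel, which opens on calcium and depolarization together. Its 6 coding transcripts came from 3 TSS groups. The exon of 12 bases was included in 2 transcripts and skipped in 3, the exon of 9 bases was included in 2 and skipped in 2, and an exon of 81 bases was included in 3 and skipped in 2. An exon of 174 bases was included in 1 and skipped in 1. Of the 6 transcripts, 4 spanned all 5 cassette exons, and no 2 of these 4 carried the same combination. The exon of 81 bases, at chr14:24155262-24155342 on the minus strand, is shown because it is included in the most transcripts of the gene.
Kcnma1, exon of 81 bases, chr14:24155262-24155342, minus strand: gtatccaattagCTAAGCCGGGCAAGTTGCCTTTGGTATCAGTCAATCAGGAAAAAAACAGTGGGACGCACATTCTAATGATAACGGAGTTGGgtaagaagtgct
The exons of 9 and 12 bases are included together in 1 transcript, which has 18 exons and ends inside the exon of 174 bases. The models also list an 8-base exon in 1 Kcnma1 transcript, followed by an intron of 5 bases with CA and TT at its ends.

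**Figure D2:**
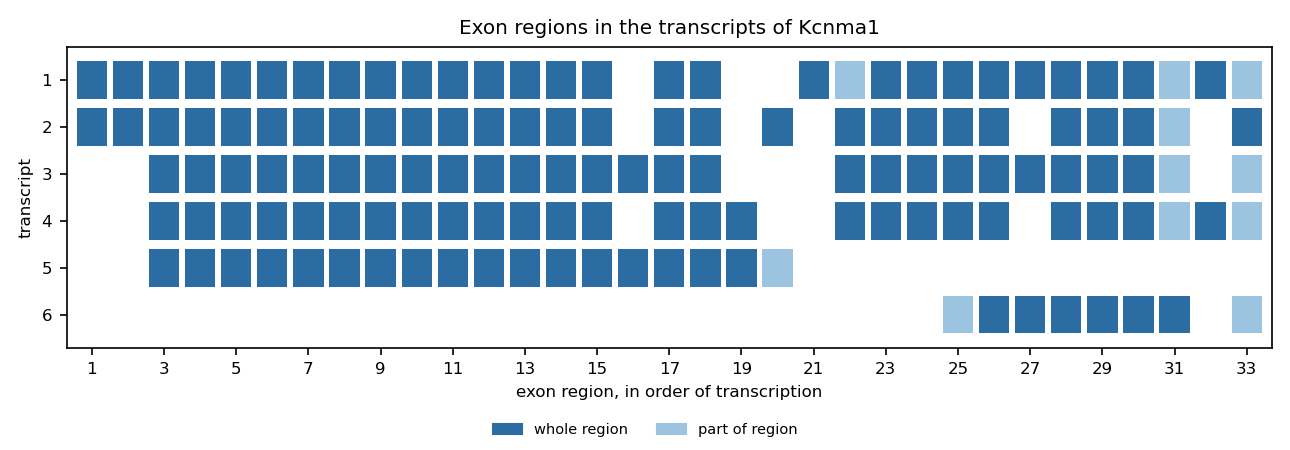
Exon regions of Kcnma1 in order of transcription, with 1 row for each of its 6 transcripts, a box where a transcript holds the region and a lighter box where it holds part of it. Columns 3 to 15 are filled in the first 5 rows, and the first gap inside a row is at column 16.

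Kcnq5, a KCNQ channel gene, had a cassette exon of 57 bases that was included in 1 coding transcript and skipped in 1. It followed a short exon of 27 bases, which stood in 2 coding transcripts and which no transcript skipped by the rule used here. The M-current gene Kcnq3, with 1 transcript, had an exon of 27 bases after an exon of 95 bases, as Kcnq5 had, and in Kcnq3 an exon of 203 bases came next. These 3 exons were chosen for display after their values were seen, to let both genes be compared base by base.
Kcnq5, exon of 27 bases, chr1:21456464-21456490, minus strand: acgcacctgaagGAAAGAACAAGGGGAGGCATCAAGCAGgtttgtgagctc
Kcnq3, exon of 27 bases, chr15:65848011-65848037, minus strand: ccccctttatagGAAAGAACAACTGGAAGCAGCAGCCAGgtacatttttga
Kcnq5, exon of 57 bases, chr1:21451632-21451688, minus strand: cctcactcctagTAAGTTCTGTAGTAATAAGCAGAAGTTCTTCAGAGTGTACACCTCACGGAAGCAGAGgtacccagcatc
The Kcnq3 exon is preceded by an intron that starts with GC in place of GT.

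Kcnt1 and Kcnt2, the sodium-activated channels, had 3 and 6 cassette exons. In Kcnt2, 2 of the 6 were forms of 1 exon, of 171 and 150 bases, with acceptors 21 bases apart. The intron before the form of 171 bases ends in AT in place of the usual AG. Both forms are counted in the totals of cassette exons given above. In Kcnt1 the exon of 42 bases was included in 4 coding transcripts and skipped in 2, and an exon of 63 bases near the end in 4 and 1. Kcnt1 also had 2 coding starts from 2 TSS groups with coding transcripts, and its other 5 TSS groups held noncoding transcripts only. In Kcnt2 the exon of 21 bases was included in 1 coding transcript and skipped in 3, and an exon of 72 bases in 2 and 2. The exon of 72 bases is shown since Kcnt2 has the most cassette exons of the set when both forms of that 1 exon are counted.
Kcnt2, exon of 72 bases, chr1:142427330-142427401, plus strand: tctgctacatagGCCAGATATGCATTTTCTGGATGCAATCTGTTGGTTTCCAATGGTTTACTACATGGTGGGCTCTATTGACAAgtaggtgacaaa
Kcnh7, an ERG-type channel, had 1 cassette exon of 21 bases, included in 2 coding transcripts and skipped in 1. Kcnd3, an A-type channel, had an exon of 57 bases, in a transcript with a coding length of 1965 bases against 1908 bases in the transcript without it.

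The KChIP genes differed in where translation starts. Over their complete coding regions, Kcnip4 had 5 coding starts and 1 stop, Kcnip1 had 3 and 1, Kcnip3 had 3 and 1, and Kcnip2 had 2 and 1. KChIP proteins carry calcium-binding EF hands in a shared core, and their variable amino ends are known to set how they act on Kv4 channels. In the longest coding transcript of each of the 4 genes, the last 6 coding exons had the same lengths, 70, 71, 108, 105, 63 and 45 bases. Over those 462 bases Kcnip3 had 71.4% identical bases with Kcnip1, 74.2% with Kcnip4 and 74.9% with Kcnip2. The exon before this run had 125 bases in Kcnip1, Kcnip2 and Kcnip4 and 121 bases in Kcnip3. In Kcnip3 this exon has 2 acceptors 4 bases apart. The 121 bases are its shorter form, which stood in 1 coding transcript, whereas the longer form stood in 2. The exon before that had 33, 54, 102 and 166 bases in Kcnip1, Kcnip2, Kcnip4 and Kcnip3. Among the channel genes, 18 of 92 (19.6%) had 2 or more coding starts, against 13.7% of all coding genes, and 17 of 92 (18.5%) had 2 or more coding stops, against 20.6%.

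In Kcnip2, the exons of 71 and 108 bases in the shared run were cassette exons, each included in 5 coding transcripts and skipped in 1. The variable part of the KChIP genes also held cassette exons. Some, in Kcnip2 and Kcnip4, are shown because of the intron ends that follow 2 of them.
Kcnip2, exon of 96 bases, chr19:45871581-45871676, minus strand: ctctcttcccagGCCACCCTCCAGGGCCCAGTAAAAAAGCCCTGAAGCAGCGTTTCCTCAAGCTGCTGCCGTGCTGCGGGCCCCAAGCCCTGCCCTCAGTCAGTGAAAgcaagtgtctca
Kcnip4, exon of 102 bases, chr5:48900898-48900999, minus strand: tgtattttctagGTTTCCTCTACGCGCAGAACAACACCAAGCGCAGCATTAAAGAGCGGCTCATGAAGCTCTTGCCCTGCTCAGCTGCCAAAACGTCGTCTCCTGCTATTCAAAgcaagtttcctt
Kcnip2, exon of 54 bases, chr19:45870769-45870822, minus strand: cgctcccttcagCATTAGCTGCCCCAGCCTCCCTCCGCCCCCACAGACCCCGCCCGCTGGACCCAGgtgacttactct
The exons of 96 and 102 bases both end in AAA and are followed by an intron that begins with gcaagt, a GC donor in place of the usual GT, whereas the exon of 33 bases in Kcnip1 is followed by gtaaaa. Of the 702 introns of the channel genes, 674 (96%) were GT-AG and 11 (1.57%) were GC-AG, against 97.3% and 1.05% of 226872 introns of all coding genes. In these 11, Kcnip2 accounted for 2 that share a donor and Kcnip4 for 1. The remaining 17 introns (2.42%) had other ends, against 1.56%, and 4 of these 17 were short, with 5 bases in Kcnma1, 24 in Kcnh3, 48 in Kcnk2 and 60 in Kcnj10.

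The 3 Kv beta genes encode relatives of aldo-keto reductases that sit under the pore of Shaker-type channels. They accounted for 18 of the 38 internal exons of 51 bases or fewer in the set. Such exons were found in 15 of 92 genes (16.3%), against 26.1% of all coding genes. From the second coding exon on, Kcnab1 and Kcnab3 had 12 exons of equal length in a row. In its longest coding transcript Kcnab2 shared the first 7 of them, of 44, 38, 80, 45, 45, 44 and 87 bases. Its cassette exon of 45 bases then stood between exons of 87 and 86 bases. That cassette exon was included in 1 coding transcript and skipped in 4. After it the lengths of the other genes went on in Kcnab2, with 86, 121, 95, 121 and 89 bases. The exon of 38 bases is shown in the 3 genes. Among the first 7 exons it had the largest share of identical bases between Kcnab1 and Kcnab3.
Kcnab1, exon of 38 bases, chr3:65099187-65099224, plus strand: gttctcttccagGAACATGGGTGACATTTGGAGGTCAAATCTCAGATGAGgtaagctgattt
Kcnab2, exon of 38 bases, chr4:151786094-151786131, minus strand: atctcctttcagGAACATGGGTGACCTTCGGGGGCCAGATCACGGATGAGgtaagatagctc
Kcnab3, exon of 38 bases, chr11:69141753-69141790, plus strand: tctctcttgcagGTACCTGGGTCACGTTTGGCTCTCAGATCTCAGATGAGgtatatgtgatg
Over this exon Kcnab1 and Kcnab2 had 31 of 38 bases in common (81.6%), Kcnab1 and Kcnab3 had 30 (78.9%), and Kcnab2 and Kcnab3 had 27 (71.1%). Over the whole run of 7 exons, 383 bases, Kcnab1 and Kcnab2 had 78.9% identical bases. The introns around the exon were 28730 and 2366 bases long in Kcnab1, 794 and 4778 bases in Kcnab2, and 87 and 220 bases in Kcnab3, so that the same exon length stood between introns of very unequal length.

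**Figure D3:**
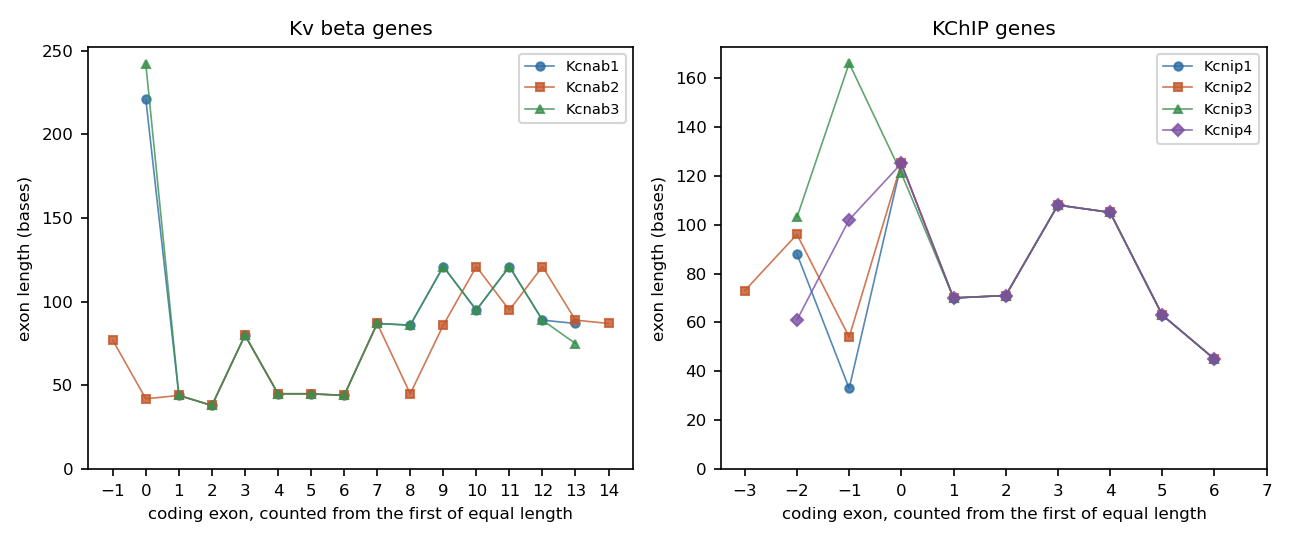
Length of each coding exon, in bases, in the longest coding transcript of the 3 Kv beta genes (left) and the 4 KChIP genes (right), with exons numbered so that the first exon of the shared run is 1. The lines of Kcnab1 and Kcnab3 coincide from exon 1 to 12, and the 4 KChIP lines coincide over exons 1 to 6. The line of Kcnab2 leaves those of Kcnab1 and Kcnab3 at its cassette exon of 45 bases, which 4 of its coding transcripts skip.

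Runs of equal coding exon lengths occurred in other families too. Kcnt1 and Kcnt2 shared 11 exons in a row (1128 bases, 72% identical), Kcnma1 and its relative Kcnu1, known from sperm, shared 9 (897 bases, 62.4%), Kcnn2 and Kcnn3 shared 6 (966 bases, 78.5%) and Kcnh6 and Kcnh7 shared 4 (1279 bases, 72.2%). Kcnq1, the cardiac and epithelial member of its family, shared no more than 2 exons in a row with Kcnq3 or Kcnq5.

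In 19 of the 92 genes (20.7%) the listed coding region lay in 1 exon, against 17.3% of all coding genes. These were 7 of the 8 Shaker genes, with Kcna7 as the exception, 5 of 15 inward rectifiers, 4 of 5 MinK-related genes and 3 of 10 silent Kv genes. The silent Kv genes counted include Kcng2, whose listed coding region of 702 bases lacks a start codon and is thus partial. Kcnj15 had 4 cassette exons, of which none lay wholly in a coding region, and 5 of its 12 coding transcripts shared 1 protein identifier. In 14 of the 92 genes (15.2%) at least 2 coding transcripts shared a protein identifier, against 13.3% of all coding genes, and Kcne1, Kcne2 and Kcne3 were among the 14.

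Some splice sites shifted by only a few bases. Alternative acceptors lay 2 bases apart in Kcnab2, 4 bases apart in Kcnip3 and 6 bases apart in Kcnt1. They are shown with the bases of the longer exon form in capitals and 15 intron bases before them in lower case, and the coordinates give the first exon base under each of both acceptors.
Kcnab2, acceptors 2 bases apart, chr4:151778751-151778753, minus strand: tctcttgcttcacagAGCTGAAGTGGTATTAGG
Kcnip3, acceptors 4 bases apart, chr2:127291710-127291714, minus strand: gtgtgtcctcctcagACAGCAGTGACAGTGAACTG
Kcnt1, acceptors 6 bases apart, chr2:25758879-25758885, plus strand: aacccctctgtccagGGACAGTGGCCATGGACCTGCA
In Kcnab2 the longer form stood in 7 coding transcripts and the shorter form in 1 noncoding transcript only, so that the shift of 2 bases changes no listed protein. In Kcnip3 the longer form stood in 2 coding transcripts and the shorter form in 1, and in Kcnt1 in 4 and 1. The shift of 4 bases is not a multiple of 3, whereas that of 6 bases is. In all, 21 pairs of alternative sites were listed in 13 genes, of which 15 were acceptors and 6 were donors. These are not all separate events, since every pair among the acceptors of 1 Kcnj15 exon was counted. The share over all coding genes was not computed, so whether 13 genes is many or few cannot be read.

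Exons were also sorted into the types used by the study, from first exons (promoter) to last exons (polyA), with internal exons either constant (canonical), skipped (variant) or of shifted ends. By these types the 952 distinct exons of the channel genes held 224 promoter exons (23.5%), 381 canonical exons (40%), 57 variant exons (5.99%), 55 alternative acceptor exons (5.78%), 20 alternative donor exons (2.1%) and 218 polyA exons (22.9%), with 3 counted under 2 types. In all coding genes the shares were 21.4%, 46.5%, 5.66%, 4.47%, 2.49% and 20.1% in the same order. Alternative acceptors made up 15.8% of the KChIP exons (12 of 76) and 12% of the SK and IK exons (6 of 50). This type asks only for exons with the same donor and different acceptors. The pairs of alternative sites above also need the same neighbouring splice site, and no SK or IK gene had such a pair. Variant exons made up 13% of the BK beta exons (3 of 23), 10.8% of the KCNQ exons, 10% of the SK and IK exons and 8.33% of the Slo exons. The EAG, ERG and ELK genes had the highest share of canonical exons of any family, 59.5%. In Shaker genes 50% of the exons were promoter exons and 40% polyA exons.

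The study named A2BP1 (Rbfox1) as a splicing factor of interest, and RBFOX proteins are known to bind the RNA word UGCAUG in introns beside the exons they act on. The study gives CAUGCA as the motif bound by A2BP1, and it found its own A2BP1 motif in promoter exons, which were not searched here. The DNA word TGCATG was searched on the sense strand in the 150 intron bases on either side of internal exons. The word CATGCA, its reverse complement and the DNA form of the study's motif, can overlap it as in TGCATGCA and was counted apart. Downstream of the 36 cassette exons of the channel genes whose including and skipping transcripts are coding, TGCATG stood in 7 flanks (19.4%). It stood in 659 of 7784 downstream flanks of such exons in all coding genes (8.47%) and in 19 of 288 downstream flanks of canonical exons of the channel genes (6.6%). Upstream it stood in 2 of 36 flanks of the cassette exons (5.56%), against 6.01% of such flanks in all coding genes and 25 of 290 flanks of canonical exons of the channel genes (8.62%). The word CATGCA stood in 4 of 36 downstream flanks (11.1%), against 4.43% in all coding genes. The 7 exons belong to 6 genes, and Kcnt2 had 2 matches. Of the 7 exons, 6 are shown with the word in capitals and up to 18 intron bases on each side within the flank.
Kcnd3, after the exon of 57 bases, chr3:105470001-105470042, plus strand: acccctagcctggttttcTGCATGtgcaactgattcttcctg
Kcnip2, after the exon of 96 bases, chr19:45871431-45871456, minus strand: gaatgtatagtcggatcgTGCATGct
Kcnma1, after the exon of 9 bases, chr14:24251311-24251352, minus strand: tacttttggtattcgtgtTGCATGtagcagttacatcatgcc
Kcnma1, after the exon of 29 bases, chr14:24125904-24125945, minus strand: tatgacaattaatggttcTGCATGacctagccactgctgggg
Kcnq5, after the exon of 57 bases, chr1:21451553-21451594, minus strand: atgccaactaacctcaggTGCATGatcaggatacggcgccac
Kcnt2, after the exon of 72 bases, chr1:142427455-142427496, plus strand: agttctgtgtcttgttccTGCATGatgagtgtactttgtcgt
Kcnt2, after the exon of 72 bases, chr1:142427505-142427546, plus strand: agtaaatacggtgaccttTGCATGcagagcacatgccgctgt
In these 6, the first base of the word stood between 20 and 143 bases after the exon. They include the exons of 9 and 29 bases in Kcnma1 and those of 57 bases in Kcnd3 and Kcnq5. A match is a string of letters and says nothing on binding in NAc, and with 36 flanks the share rests on few exons.

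**Figure D4:**
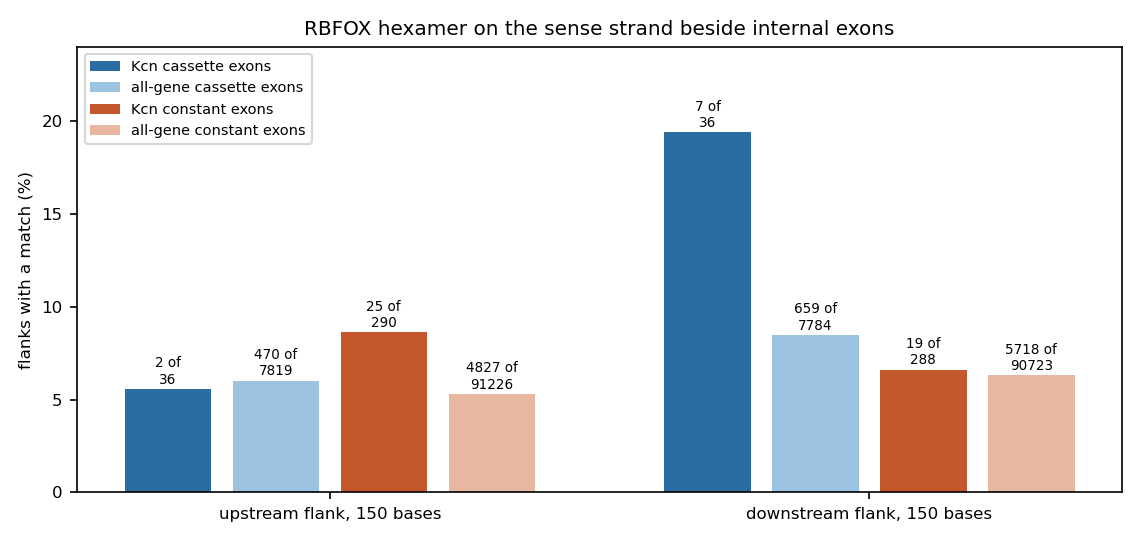
Share of 150-base intron flanks with TGCATG on the sense strand, in percent, upstream (left) and downstream (right) of cassette exons and of canonical (constant) exons, for the Kcn genes and for all coding genes, with the counts above each bar. The tallest bar is the downstream flank of Kcn cassette exons, at 7 of 36; the all-gene bars include the Kcn genes.

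By median span the channel genes were longer than all coding genes, though not longer than the other channel families compared. Their median span was 28.1 kb, against 15 kb for all coding genes and 19.5 kb for coding genes of 2 or more exons. It was 135 kb for Cacna1 genes of calcium channels, 93.1 kb for the Scn genes compared and 28.5 kb for Hcn genes. Of the 92, 22 (23.9%) spanned over 100 kb, against 10.6% of all coding genes. The median of the longest intron per gene was 19.3 kb, against 5.42 kb for all coding genes and 7.05 kb for those of 2 or more exons. Kcnip4 spanned 1135198 bases on chromosome 5, of which 1 intron took 1041985 bases, and its 5 TSS groups lay up to 1041998 bases apart. Kcnq5 followed at 564 kb, Kcnd2 at 514 kb, Kcnma1 at 505 kb and Kcnh7 at 491 kb. In Kcnd2, 1 intron of 497 kb took nearly the whole span of a gene with 6 exons and 1 transcript. Kcnip2 spanned 24.2 kb, yet it had more transcripts than Kcnip4. By family the median span was 291 kb for the KCNQ genes and 227 kb for the Slo genes, against 6.64 kb for the Shaker genes and 5.74 kb for the MinK-related genes.

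**Figure D5:**
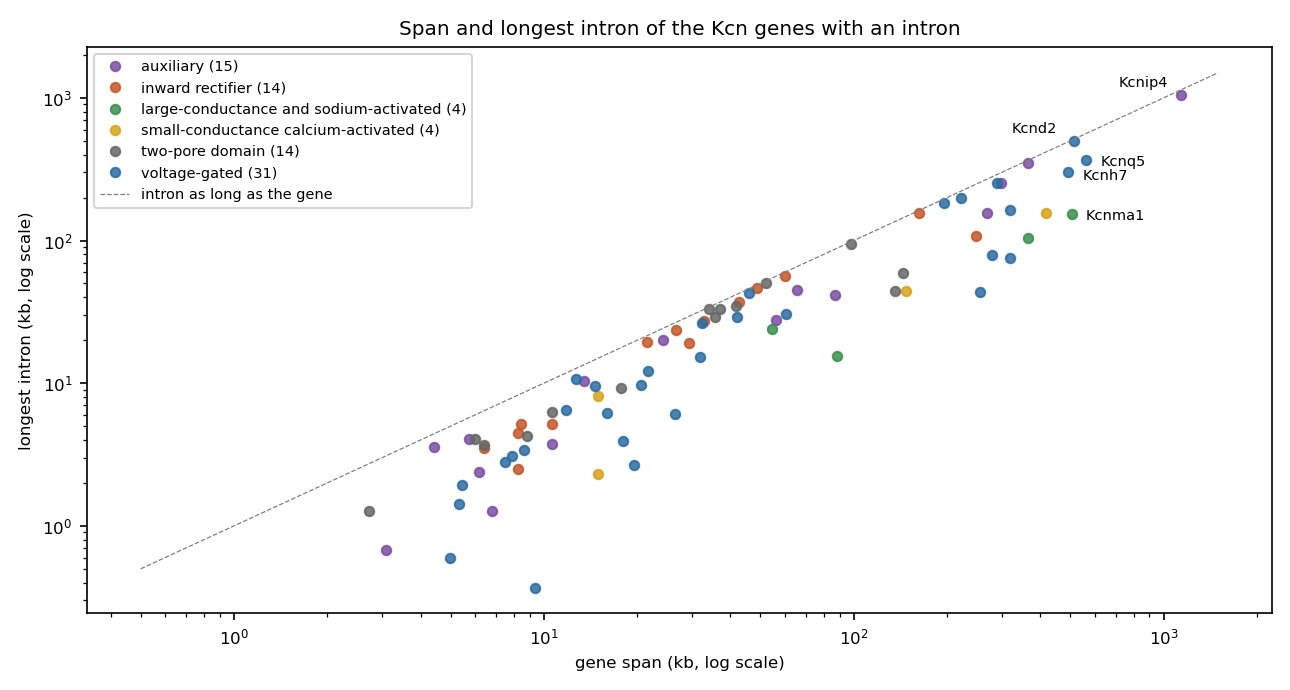
Longest intron against gene span, both in kb on log axes, for 82 Kcn genes with an intron, coloured by class with the number of genes plotted in brackets. Points near the dashed line are genes of which 1 intron fills most of the span, such as Kcnip4 and Kcnd2, whereas Kcnma1 lies well below it.

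Several members were neighbours. Within 100 kb of each other lay 9 pairs, and 1 of these overlapped: Kcnmb1, a BK beta subunit, lay whole within Kcnip1 on the opposite strand of chromosome 11, with no exonic base in common. The G protein-gated gene Kcnj9 and Kcnj10, the main inward rectifier of astrocytes, were 11.9 kb apart and pointed away from each other. Kcnj5 and Kcnj1 were 28.2 kb apart, Kcnj16 and Kcnj2 38.2 kb, and Kcne2 and Kcne1 47.9 kb. Shaker genes formed 2 groups on chromosomes 3 and 6, with Kcna3, Kcna2 and Kcna10 all on the plus strand and Kcna5, Kcna1 and Kcna6 all on the minus strand. In the second group Kcna5 and Kcna1 were 101 kb apart. Kcnk5 and Kcnk16 were 81 kb apart.

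Of the 92 genes, 17 overlapped a gene of any kind on the opposite strand (18.5%), against 26.4% of all coding genes. Exonic bases were shared with an overlapping gene in 9 (9.78%), against 19.2% of all coding genes. Kcna6 shared 2343 of its 5933 exonic bases with a long intergenic noncoding RNA on the opposite strand, and Kcnj3 shared 1621 of 5215 with another. Kcnh7 shared 696 exonic bases with Gca on the opposite strand, and Kcnmb4 shared 693 with 4933400F03Rik and 355 with 1700058G18Rik. Kcnd3 shared 165 with 1700095B22Rik. No source used here states a strand-specific library, and in its absence reads of these shared bases cannot be assigned to 1 of the genes. Kcnh8 was split in the models, with 1 coding transcript of 10 exons on the plus strand at chr17:52865084-53044561 and 1 of 5 exons on the minus strand at chr17:53093281-53121602, so that it lay in 2 loci and brought the 92 genes to 93 loci.

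How far transcripts of a gene can be told apart by reads also differed between members. Of the 221 transcripts in genes with 2 or more, 69 (31.2%) had no exonic base of their own, against 29.3% in all coding genes, and 34 of these (15.4% of the 221) had no splice junction of their own either, against 10.8% in all coding genes. In Kcnj15, 7 of 13 transcripts had no base of their own, and 6 of these 7 had no junction of their own. In Kcnma1, 3 of 6 transcripts had no base of their own, but each had a junction of its own. Of the 220 coding transcripts, 186 had both a start and a stop codon in the annotation of the same build. The 34 others included 5 of the 6 Kcnma1 transcripts and 4 of the 9 coding Kcnip2 transcripts, so that their coding lengths are partial.

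Against other channel families, the 10 Cacna1 genes of voltage-gated calcium channels had 87 transcripts with a median of 9, and the 8 Scn genes of the comparison had 33 with a median of 4.5, with Scn2a1 left out because the list held it under another symbol. The 4 Hcn genes had 8 with a median of 1.5. Cassette exons were listed in 8 of 10 Cacna1 genes, 3 of 8 Scn genes and 1 of 4 Hcn genes. In the Kcn set, the 4 Slo genes each had a cassette exon, with a median of 6 transcripts. Partners of potassium channels without a Kcn symbol were listed with 23 transcripts in 7 genes, and Dpp6, a Kv4 partner, had 8 of them in 6 TSS groups over 910303 bases.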

How the data were processed

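RNA of 12 pools of NAc tissue was sequenced by the authors, 3 in each of 4 conditions. For the mm9 (NCBIM37) build, CASAVA, Cuffdiff, Cufflinks and TopHat appear in the submitters' processing notes; the versions were not given in sources used here. The deposited file holds the exon coordinates of 87740 transcripts (624665 exons) with locus, TSS and protein identifiers, and 0 columns of values per pool.

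Members and lists were chosen with earlier results of these data known. The genes named were the 10 with most transcripts or TSS groups, the leader of each family, those with short coding cassette exons, neighbours within 100 kb, the 5 longest and a list of striatal channels. A gene was a symbol, and Kcnh8, with transcripts on both strands, was kept whole. Coding regions came from GENCODE M1 of the same build, in which 85297 of 87158 transcripts found had identical exons, as had 257 of the 260 channel transcripts. Sequences were read from the NCBIM37 genome. Cassette exons, exon types, site pairs and unique bases were computed in Python 3.11.15 and tested on simulated data. Figures used matplotlib. Values in the study's own tables were not used here. Alternatives changed the unit, the transcripts counted and each length or distance limit. Results of some of the genes are not reported here.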

Additional observations from a re-analysis of the deposited data

How the results depend on the processing

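No paired analysis was possible because the gene models hold no value of any pool. For the same reason no pool could be left out. Under the alternatives tried, 4 counts moved by over 1.5 times. Cassette exons numbered 42, and 65 when any intron that contains the exon was enough, a looser definition by construction. Internal exons of 51 bases or fewer numbered 38, and 9 at a limit of 27 bases. Genes with the coding region in 1 exon numbered 19, and 6 had a coding transcript of 1 exon. Neighbouring pairs numbered 9 within 100 kb, 5 within 50 kb and 10 within 200 kb. The counts of members, of genes with 2 or more transcripts, TSS groups or proteins, of variant exons and the median span stayed within 1.5 times under each alternative run. With flanks of 100 and 300 bases, chosen after seeing the data, the share of downstream flanks with TGCATG was 13.9% and 26.5%. In all coding genes these shares were 6.07% and 14.7%, so longer flanks held more matches there too. At 300 bases the word stood in 13.7% of downstream flanks of canonical exons of the channel genes. It stood in 15.2% of upstream flanks of their cassette exons. Over all cassette exons, with flanks of 150 bases, the downstream share was 16.7%, against 7.98% in all coding genes. An annotation lists transcripts known when it was built, so that a gene with 1 transcript may have others.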
